A study of Mus musculus with 8 samples.

Results

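Late fetal stem-gated cells (embryonic day 19, E19) were compared with those of newborn bone marrow (postnatal day 2, P2). The members were chosen by their own UMI counts (unique molecular identifiers, each standing for 1 captured transcript). A cell entered the stem gate with at least 1 UMI of Mecom and at least 1 of Hlf, fewer UMIs of Mpo than of Mecom, and 0 of Cd79a, Elane and Mcpt8. Barcodes had first to show 1000 genes or more and 2000 UMIs or more, with no more than 10% of UMIs mitochondrial. The gate held 8359 of 10725 kept cells at E19 and 1443 of 6550 in P2 bone marrow, together 9802 of the 37147 kept cells of all 6 RNA libraries. Because the libraries differ in their share of cycling cells, levels were compared within the gated cells that had 0 UMIs of Top2a, Mki67, Cenpf, Ube2c and Ccnb1, called non-mitotic here. These were 3891 cells at E19 and 480 in P2 bone marrow.

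All cells had been sorted as Epcr+Lin-Sca-1+Kit+, a surface phenotype rich in hematopoietic stem cells, after magnetic enrichment for Kit. The P2 bone marrow library came from 7 merged wild-type (WT) mice and was labelled batch 1, as were the P2 spleen and P2 liver libraries of the same pool. The E19 library came from WT mice, was labelled batch 2, and has no number of animals in its labels. Its title says bone marrow and its tissue field says fetal liver, so it is called E19 here. The other P2 libraries, from batch 3, were 2 tubes that mixed bone marrow and spleen cells of 2 Tppp3CreER LSLTdTomato pups given tamoxifen at P0; in these mice Cre follows the Tppp3 gene. Sex was labelled as unknown in each sample. With 1 library a side, age, batch, source tissue, sorting day and Cell Ranger version (7.1.0 at E19, 7.0.0 in P2 bone marrow, per the file headers) cannot be told apart, and no test was possible. The 5 P2 libraries were used to show where E19 lay outside the range of P2 cells.

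Hematopoietic stem cells divide and expand in the fetal liver and settle in the bone marrow around birth. The fetal state is known for a programme of RNA-binding and chromatin proteins that includes Lin28b, the Igf2bp family and Hmga2, and for expression of imprinted growth genes. Postnatal stem cells gradually gain antigen presentation, interferon-response genes and longer quiescence. Mecom and Hlf, which gate the cells, encode transcription factors of long-term stem cells, while Mpo, Elane, Mcpt8 and Cd79a mark neutrophil, basophil and B-lineage cells.

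The labels of the source tissue were set against tissue markers over all kept cells. The hepatocyte transcripts Alb, Ttr and Serpina1a were at 2.55, 2.27 and 0.382 CPM (counts per 1000000 UMIs) at E19 and at 13.61, 19.97 and 2.33 CPM in P2 liver, and all 3 were at 0 in P2 bone marrow, P2 spleen and both tubes. Col1a1, which encodes the bone collagen chain, was at 13.3 CPM in P2 bone marrow, 0.0811 at E19, 0.0319 in P2 liver, 0.260 in P2 spleen, 0.722 in tube 1 and 219 in tube 2. Apoa1 and Apoa2 were also higher at E19 (2.65 and 2.43 CPM) and in P2 liver (8.25 and 11.8). Elsewhere they were not at 0 but from 0.216 to 1.11 CPM. Afp was not so divided, at 4.67 CPM at E19, 4.56 in P2 bone marrow, 2.09 in P2 spleen and 8.84 in P2 liver. In the tubes Afp was at 8.10 and 6.15 CPM. The 6 markers summed to 14.95 CPM at E19, 64.8 in P2 liver and from 3.46 to 9.29 CPM in the other libraries. Within non-mitotic stem-gated cells none of the 6 hepatocyte markers was at 0 at E19, and they summed to 9.36 CPM there and 10.0 CPM in P2 bone marrow, where Alb, Ttr and Serpina1a were at 0 and Afp gave most of the sum.

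E19 was richer in stem-gated cells and in non-mitotic cells than P2 bone marrow. The gate took 77.9% of kept cells at E19 (exact 95% binomial interval 77.1 to 78.7) and 22.03% in P2 bone marrow (21.03 to 23.05). These intervals, and all others below, cover counting error only and not the spread between animals. The median depth of gated cells was nearly equal, at 6270 UMIs at E19 and 6185 in P2 bone marrow. Non-mitotic cells were 46.6% of gated cells at E19 (45.5 to 47.6) and 33.3% in P2 bone marrow (30.8 to 35.8). With each gated cell thinned to 4000 UMIs the non-mitotic shares were 51.2% of 7678 cells and 30.7% of 1227 cells, so the order did not rest on depth.

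The gate lost different cells in the 2 libraries. Of cells with both Mecom and Hlf, 314 of 8766 (3.58%) at E19 and 354 of 1972 (18.0%) in P2 bone marrow were set aside because Mpo equalled or exceeded Mecom. Gated cells held a median of 9 Mecom and 5 Hlf UMIs at E19, against 5 and 3 in P2 bone marrow. Cells just inside the gate, with exactly 1 UMI of each, made up 0.933% of gated cells at E19 and 2.77% in P2 bone marrow. Just outside, 608 cells at E19 and 351 in P2 bone marrow held UMIs of either Mecom or Hlf but not both, with 0 UMIs of Mpo, Cd79a, Elane and Mcpt8. Cell barcode sequences shared between E19 and P2 bone marrow numbered 28, of which 7 were gated in both.

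**Figure D1:**
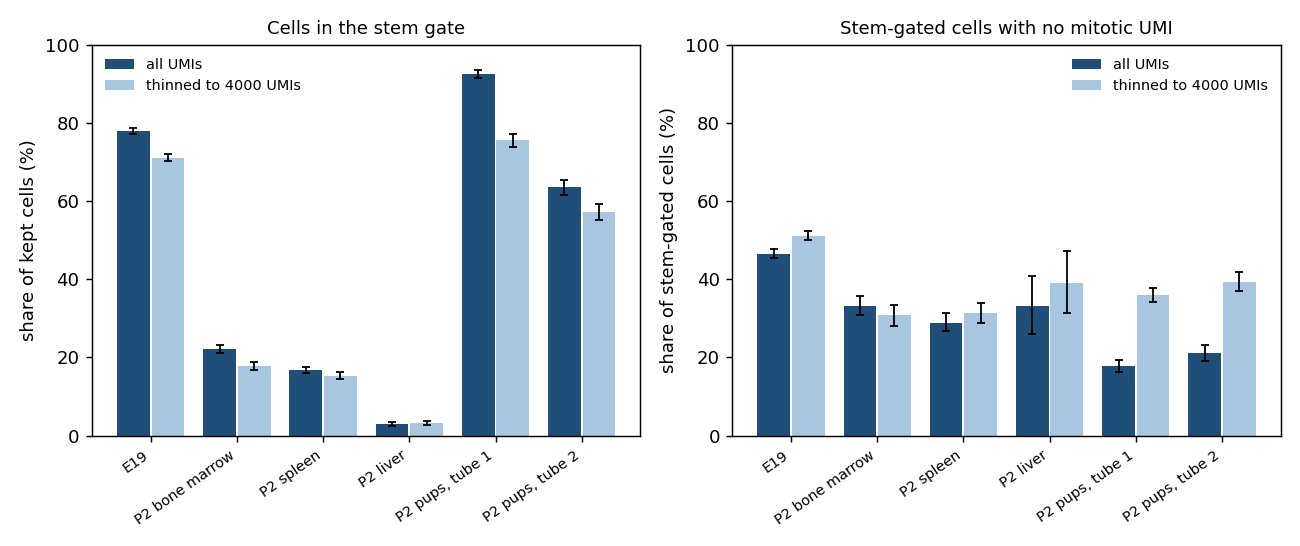
Share of kept cells in the stem gate (left, percent) and share of stem-gated cells with no mitotic UMI (right, percent) in each of the 6 libraries, from all UMIs (dark) and after thinning to 4000 UMIs (light), with exact 95% binomial intervals. E19 has the highest non-mitotic share, 46.6% before and 51.2% after thinning, and its gate share of 77.9% is passed by tube 1 alone.

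UMIs were summed over the non-mitotic gated cells of each library, 21586434 at E19 and 2198991 in P2 bone marrow, and 9562 genes reached 10 CPM on at least 1 side. Of these, 266 (2.78%) were at least 2-fold higher at E19 and 210 (2.20%) at least 2-fold higher in P2 bone marrow. Over all genes compared, 4064 were higher and 5498 lower at E19 by any amount, with a median log2 fold of -0.08. Klhl24 (2.01-fold) and Pde4b (1.995-fold) lay just inside and outside the 2-fold line on the E19 side, and Cavin3 (2.001-fold) and Flywch2 (1.99-fold) on the P2 side. E19 was at least 1.5-fold above all 5 P2 libraries for 136 genes (1.42%) and at least 1.5-fold below all 5 for 185 (1.93%). Of the 266 genes higher at E19, 101 (37.97%) met that stricter condition, and of the 210 higher in P2 bone marrow, 103 (49.05%) did.

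**Figure D2:**
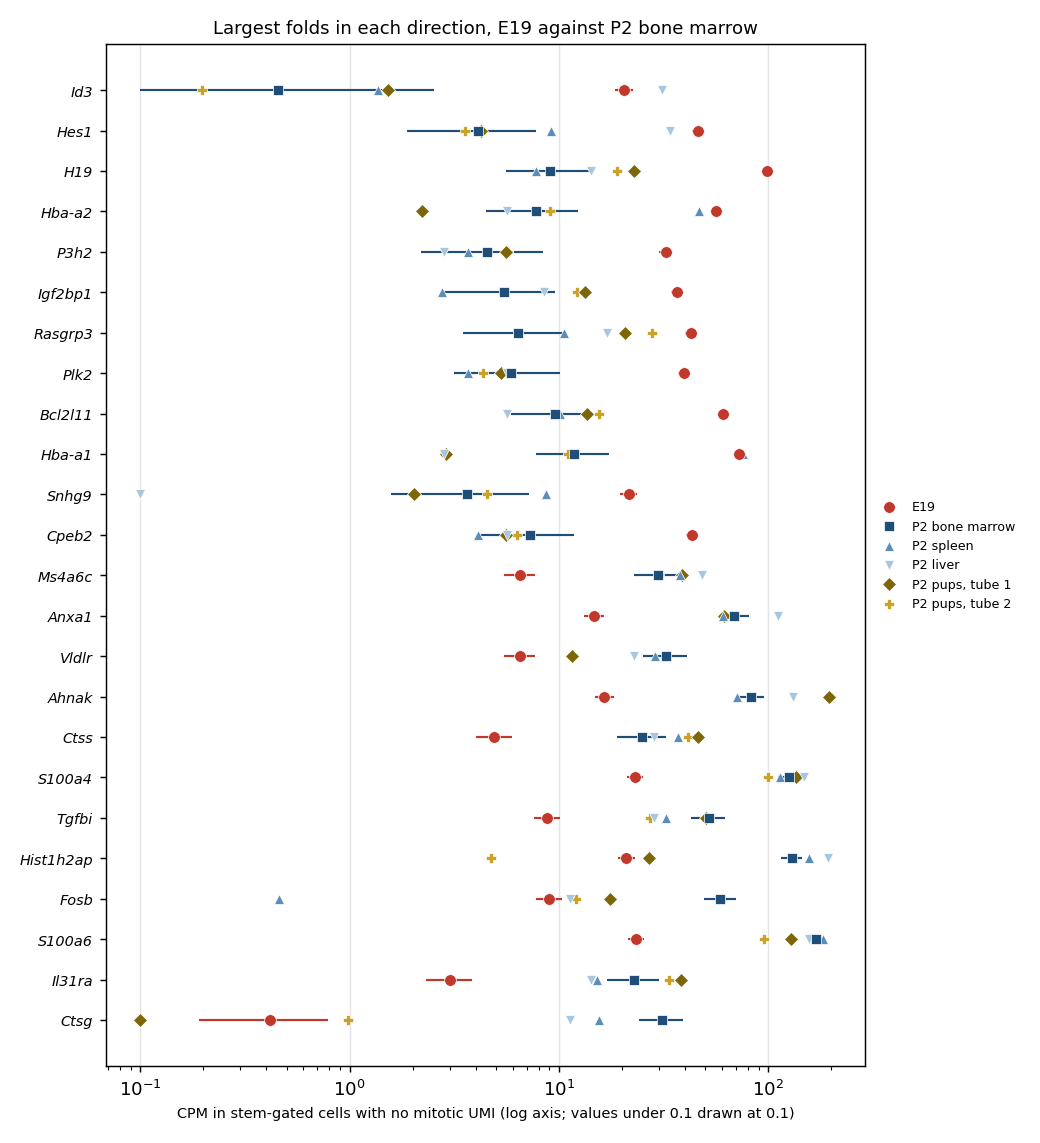
CPM (log axis) of the 12 genes with the largest fold in each direction among those at 20 CPM or more, in non-mitotic stem-gated cells of the 6 libraries; bars are exact 95% Poisson intervals, drawn for E19 (red) and P2 bone marrow (dark blue). Plk2, P3h2 and Cpeb2 at E19 stand above all P2 libraries, Id3 and Hes1 are also high in P2 liver, and S100a6, S100a4 and Ctss at E19 stand below all P2 libraries.

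The genes higher at E19 began with growth genes of fetal tissue. H19, a maternally expressed imprinted noncoding RNA (chromosome 7, 142575529 to 142578143, minus strand, mm10), was at 98.4 CPM at E19 and 9.10 CPM in P2 bone marrow. It stood at 7.78 CPM in P2 spleen, 14.2 in P2 liver, 22.9 in tube 1 and 18.9 in tube 2. H19 was thus 10.8-fold higher at E19 than in P2 bone marrow (95% interval 6.99 to 17.8) and 4.29-fold above the highest P2 library. After thinning to 4000 UMIs, 24.2% of E19 cells (22.7 to 25.7) and 2.85% of P2 bone marrow cells (1.31 to 5.34) held an H19 UMI. B-lineage cells of the same libraries, with at least 2 Cd79a UMIs and none of Mecom or Hlf, gave 34.5% of 87 cells at E19 and 3.69% of 624 cells in P2 bone marrow. The stem-gated share was not above that of B-lineage cells in either library, so H19 UMIs of stem-gated cells cannot be told apart from free RNA by this measure.

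Igf2bp1, which encodes a fetal RNA-binding protein (chromosome 11, 95957163 to 96005940, minus strand), was at 36.6 CPM at E19 and 5.46 in P2 bone marrow, 6.71-fold (3.82 to 13.03). P2 spleen, P2 liver and tubes 1 and 2 had 2.75, 8.504, 13.2 and 12.2 CPM, all below E19. In cells that held a mitotic UMI the gap was wider, at 32.8 against 1.66 CPM. After thinning, 13.5% of E19 cells and 2.22% of P2 bone marrow cells held an Igf2bp1 UMI, against 8.05% (3.30 to 15.9) and 0% (0 of 624 cells, which allows up to 0.481%) of their B-lineage cells; at E19 these intervals overlapped.

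Other members of the fetal list differed less. Hmga2, a chromatin protein of fetal stem cells, was at 839 CPM at E19 and 485 in P2 bone marrow, 1.73-fold (1.63 to 1.84), and 470, 587, 637 and 762 CPM in P2 spleen, P2 liver, tube 1 and tube 2. E19 was highest, but tube 2 came within 1.10-fold. Lin28b, the RNA-binding protein that drives the fetal programme, was at 76.4 CPM at E19 and 54.6 in P2 bone marrow, and at 80.4 CPM in tube 2, above E19. Hmga1 went the other way, at 30.6 CPM at E19 and 62.3 in P2 bone marrow. Of the 9 genes of this list that were compared, 7 were higher at E19, against 4064 of all 9562. At least 2-fold higher was 1 of them, against 2.78% of all genes. The median log2 fold was 0.51 against -0.08 for all genes. Against the tubes that median was 0.14 and -0.07, where the medians of all genes were -0.22 and -0.25.

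Imprinted growth genes made up a larger group. Of 12 compared, 11 were higher at E19, against 4064 of all 9562, and 6 of them at least 2-fold, against 2.78% of all genes. The median log2 fold was 0.93. Against P2 spleen and P2 liver it was 1.13 and 1.06. Against tubes 1 and 2 it was 0.30 and 0.12, where the medians of all genes were -0.22 and -0.25. At least 1.5-fold above all 5 P2 libraries stood 3, against 1.42% of all genes. Meg3, a noncoding RNA of the Dlk1 domain, was at 131 CPM at E19 and 56.4 in P2 bone marrow, and between 33.4 and 63.0 CPM in the other P2 libraries, so E19 stood 2.08-fold above the highest of them. Meg3 UMIs were in 29.2% of thinned E19 cells and 11.4% of P2 bone marrow cells, and in no B-lineage cell of either library, which allows a share of up to 3.45% and 0.481%. Rian, from the same domain, was at 25.9 CPM at E19 and from 8.70 to 14.2 CPM in the P2 libraries. Dlk1 itself, a Notch-like growth regulator, was at 53.1 CPM at E19 and 19.1 in P2 bone marrow, yet at 42.5 and 43.5 CPM in the tubes. Igf2r, which clears the growth factor Igf2, was at 55.8 against 21.4 CPM. Igf2 was at 11.1 CPM at E19, 2.27 in P2 bone marrow, 1.83 in P2 spleen, 2.84 in P2 liver, and 16.8 and 24.0 CPM in tubes 1 and 2. In P2 bone marrow, P2 spleen and P2 liver these values rested on 5, 4 and 1 UMIs. The P2 liver interval, 0.0718 to 15.8 CPM, held the E19 value. Higher Igf2 at E19 therefore held beyond counting error against P2 bone marrow and P2 spleen, and not against the tubes. Zdbf2, an imprinted gene outside the list (chromosome 1, 63273265 to 63314576, plus strand), was at 36.0 CPM at E19 and at most 8.64 CPM in any P2 library, 4.17-fold lower.

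Id3 and Hes1, inhibitors of differentiation that BMP and Notch signals induce in many cells, had the largest folds at E19 among genes at 20 CPM or more but were not low in all P2 cells. Id3 (chromosome 4, 136143497 to 136145755, plus strand) was at 20.4 CPM at E19 and 0.455 CPM in P2 bone marrow, where it rested on 1 UMI, a ratio of 44.9 (8.02 to 1778). P2 spleen had 1.37 CPM, tubes 1 and 2 had 1.53 and 0.197 CPM, and P2 liver had 31.2 CPM. Hes1 (chromosome 16, 30064384 to 30067796, plus strand) was at 46.1 CPM at E19, 4.09 in P2 bone marrow, 9.16 in P2 spleen, 4.24 and 3.54 in the tubes, and 34.0 CPM in P2 liver. Both genes were higher in E19 and P2 liver than in the other 4 libraries. The P2 liver library held 54 non-mitotic gated cells. After thinning, Id3 UMIs were in 4.77% of E19 cells and 0 of 316 P2 bone marrow cells (which allows up to 0.949%), while B-lineage cells, which use Id3, held one in 27.6% and 46.8% of cells. Hes1 UMIs were in 11.8% of E19 and 0.949% of P2 bone marrow stem-gated cells, below the 48.3% and 17.95% of B-lineage cells. Among 15 compared genes of the TGF-beta and SMAD list, 10 were higher at E19, against 4064 of all 9562. Id3 was the 1 that passed 2-fold, where 2.78% of all genes did. Smad6 and Ski were at 24.3 and 84.96 CPM at E19 against 12.7 and 45.02 CPM. Id1, a close relative of Id3, was at 29.1 CPM at E19 and 30.9 CPM in P2 bone marrow.

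Several signalling genes stood above every P2 library. Plk2, a kinase induced by stress and growth signals (chromosome 13, 110395046 to 110400844, plus strand), was at 39.5 CPM at E19 and 5.91 in P2 bone marrow, 6.68-fold (3.88 to 12.6). The other P2 libraries had 3.66, 5.67, 5.26 and 4.33 CPM, so P2 bone marrow was the nearest. Plk2 UMIs were in 13.04% of thinned E19 cells and 1.90% of P2 bone marrow cells, against 11.5% (5.65 to 20.1) and 1.28% of B-lineage cells, so at E19 the share was not above that of B-lineage cells beyond counting error. P3h2, a collagen prolyl hydroxylase, was at 32.2 against 4.55 CPM, and Cpeb2, which controls translation from polyadenylation elements, at 43.0 against 7.28 CPM. Bcl2l11 (chromosome 2, 128126038 to 128162547, plus strand), which encodes the pro-apoptotic protein Bim, was at 60.7 CPM at E19, 9.55 in P2 bone marrow and at most 15.5 in any P2 library. Its UMIs were in 17.6% of thinned E19 cells and 3.17% of P2 bone marrow cells, below the 26.4% and 7.69% of B-lineage cells. Fzd4, a Wnt receptor, was at 22.1 CPM at E19 and between 2.84 and 6.79 CPM in the P2 libraries. Rnf125, an E3 ubiquitin ligase, was at 58.8 CPM at E19 and between 11.04 and 17.01 CPM in the P2 libraries. Rasgrp3, an activator of Ras, was at 42.6 against 6.37 CPM, but tube 2 reached 27.7 CPM.

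Immediate early genes, which growth factors and other stimuli switch on within minutes, were higher at E19 with 1 large exception. Of 23 compared, 18 were higher at E19, against 4064 of all 9562, and 8 of them at least 2-fold, against 2.78% of all genes. At least 1.5-fold above all P2 libraries stood 7, against 1.42% of all genes. The nuclear receptor Nr4a1 (chromosome 15, 101254269 to 101274795, plus strand), linked to stem cell quiescence, was at 71.3 CPM at E19 and 22.7 in P2 bone marrow, 3.14-fold (2.37 to 4.24). It was at 12.8, 22.7, 14.4 and 8.26 CPM in P2 spleen, P2 liver, tube 1 and tube 2. Nr4a1 UMIs were in 19.8% of thinned E19 cells and 7.91% of P2 bone marrow cells, above the 2.30% and 1.28% of B-lineage cells. Its relative Nr4a2 was at 79.9 against 31.4 CPM, and the AP-1 subunit Fosl2 at 44.1 against 15.01 CPM. Klf2, a quiescence factor of blood and endothelium, was at 41.6 CPM at E19 and 12.3 in P2 bone marrow, and at 36.9 CPM in P2 liver. Klf2 UMIs were in 12.98% of thinned E19 cells and 3.80% of P2 bone marrow cells, against 11.5% (5.65 to 20.1) and 11.4% of B-lineage cells, so neither share was above that of B-lineage cells beyond counting error. Fos and Jun, the classical members, were close to equal, at 106 against 95.5 CPM and 198 against 177 CPM.

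Fosb was the exception. This AP-1 subunit (chromosome 7, 19302696 to 19310051, minus strand) was at 58.7 CPM in P2 bone marrow and 8.99 CPM at E19, 6.53-fold (5.18 to 8.20). It was at 0.458 CPM in P2 spleen, 11.3 in P2 liver, 17.5 in tube 1 and 11.99 in tube 2. P2 bone marrow was thus the library that stood apart for Fosb. P2 spleen, from the same mice, was below E19, at a log2 fold of 4.30 in the other direction. The P2 spleen value rested on 1 UMI (interval 0.0116 to 2.55 CPM). With cells that held a mitotic UMI, Fosb was at 17.9 CPM in P2 bone marrow and 7.30 CPM at E19.

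Quiescence genes partly overlapped that list. Of 16 compared, 12 were higher at E19, against 4064 of all 9562, and 5 passed 2-fold, against 2.78% of all genes. The median log2 fold was 0.62. The cyclin-dependent kinase inhibitors differed in direction: Cdkn1c (p57) was at 78.9 CPM at E19 and 50.5 in P2 bone marrow, Cdkn1a (p21) at 19.0 and 10.9 CPM, and Cdkn1b (p27) at 29.4 and 52.3 CPM. Btg1, an antiproliferative gene, was at 63.1 CPM at E19 and between 21.5 and 28.9 CPM in the P2 libraries. Against tube 2 the list's median was -0.08, where the median of all genes was -0.25.

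Vimentin, lamin, annexin and S100 genes, a cytoskeletal and membrane group, were lower at E19. Of 18 compared, 16 were lower at E19, against 5498 of all 9562, and 9 of them at least 2-fold, against 2.20% of all genes. At least 1.5-fold below all 5 P2 libraries stood 9, against 1.93% of all genes. The median log2 fold was -0.98, and from -0.73 against tube 2 to -1.18 against P2 liver. S100a6, a calcium-binding protein (chromosome 3, 90612882 to 90624181, plus strand), was at 23.3 CPM at E19 and 169 in P2 bone marrow, 7.24-fold (6.31 to 8.30). It was at 183, 156, 128 and 95.6 CPM in P2 spleen, P2 liver, tube 1 and tube 2, so no P2 library came within 4-fold of E19. Its neighbour S100a4 (chromosome 3, 90603771 to 90606045, plus strand) was at 23.2 CPM at E19 and between 99.3 and 147 CPM in the P2 libraries.

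Larger structural proteins of this group differed in the same direction. Ahnak, a giant scaffold of the cell membrane (chromosome 19, 8989284 to 9076914, plus strand), was at 16.5 CPM at E19, 82.3 in P2 bone marrow, 71.0 in P2 spleen, 130 in P2 liver, and 195 and 198 CPM in the tubes. Vim, the intermediate filament vimentin, was at 195 CPM at E19 and between 563 and 781 CPM in the P2 libraries. Its UMIs were in 51.02% of thinned E19 cells and 76.9% of P2 bone marrow cells, against 44.8% (34.1 to 55.9) and 59.6% of B-lineage cells, so the E19 share lay within the interval of its B-lineage cells. Lmna, which encodes the A-type lamins of the nuclear envelope (chromosome 3, 88480147 to 88509956, minus strand), was at 9.54 CPM at E19 and 42.8 in P2 bone marrow, 4.48-fold (3.47 to 5.74). The B-type lamin genes were close, with Lmnb1 at 111 and 146 CPM and Lmnb2 at 10.2 and 8.19 CPM. Anxa1, an annexin that binds membranes with calcium (chromosome 19, 20373428 to 20390944, minus strand), was at 14.7 CPM at E19 and 68.7 in P2 bone marrow.

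The lamin and Ahnak differences were smaller in cycling cells. In gated cells with a mitotic UMI, Lmna was at 14.4 CPM at E19 and 16.1 in P2 bone marrow, 1.12-fold, and Ahnak at 9.37 and 18.0 CPM, 1.92-fold. S100a6 was still at 20.1 against 93.8 CPM there, and S100a4 at 22.7 against 69.7 CPM. Whether the fold differs between non-mitotic and cycling cells was not tested. After thinning, 8.45% of non-mitotic E19 cells and 35.1% of non-mitotic P2 bone marrow cells held an S100a6 UMI, against 5.75% (1.89 to 12.9) and 8.17% of B-lineage cells, so the E19 share lay within that interval. Lmna UMIs were in 3.54% and 10.4% of stem-gated cells, against 1.15% and 1.76% of B-lineage cells.

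Antigen presentation by MHC class I, which shows peptides of the cell's own proteins to T cells, was lower at E19. Of 16 compared genes 13 were lower, against 5498 of all 9562, and 4 of them at least 2-fold, against 2.20% of all genes. The median log2 fold was -0.59. The heavy chain gene H2-K1 (chromosome 17, 33996017 to 34000347, minus strand) was at 205 CPM at E19 and 547 in P2 bone marrow, 2.67-fold (2.50 to 2.84), and between 395 and 544 CPM in the other P2 libraries. H2-D1 (chromosome 17, 35262730 to 35267499, plus strand) was at 140 CPM at E19 and between 332 and 372 CPM in the P2 libraries. Heavy chain genes are near-identical in places, so reads of single members are uncertain. Nlrc5, the activator that switches on the class I genes, was at 11.5 against 25.5 CPM, and the peptide transporter gene Tap1 at 16.7 against 31.4 CPM. B2m, the shared light chain, was at 511 against 658 CPM, 1.29-fold. After thinning, 51.6% of E19 cells (49.9 to 53.3) and 86.1% of P2 bone marrow cells (81.8 to 89.7) held an H2-K1 UMI, and 19.5% and 54.2% of B-lineage cells did.

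Interferon-response genes were lower at E19 in nearly the whole list, by small folds. Of 29 compared, 27 were lower, against 5498 of all 9562, and 4 passed 2-fold, against 2.20% of all genes. The median log2 fold was -0.59. At least 1.5-fold below all P2 libraries stood 9, against 1.93% of all genes. The transcription factor gene Irf7 was at 8.71 CPM at E19, 20.9 in P2 bone marrow, 17.9 in P2 spleen, 39.7 in P2 liver, 52.6 in tube 1 and 21.4 in tube 2. Iigp1, an immunity-related GTPase, was at 7.37 CPM at E19 and between 17.3 and 39.7 CPM in the P2 libraries. Ifi47, another such GTPase, was at 22.8 CPM at E19 and between 47.6 and 56.2 CPM in the P2 libraries. Rsad2 and Bst2 were the 2 members not lower, at 16.8 against 15.5 CPM and 111 against 100.0 CPM. Against tubes 1 and 2 the median was -1.22 and -0.87, where the medians of all genes were -0.22 and -0.25. Of the receptors, Ifngr2, a chain of the interferon gamma receptor, was at 16.8 CPM at E19 and between 40.3 and 53.7 CPM in the P2 libraries, while Ifngr1, Ifnar1 and Ifnar2 were within 1.5-fold of P2 bone marrow.

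Promoters are shown for members of these groups that hold a known control motif. Sequences are from RefSeq (GRCm38.p6), each 120 bases long and upstream of the annotated start, 5′ to 3′ on the gene's strand. The motif is in capitals, and where matches overlap only the first is marked. The Oas1a window holds a further match, GAAACTGAA, that starts within the marked one and runs on in lower case. The 250 bases before the start were searched on both strands. The interferon-stimulated response element core GAAANNGAA, bound by STAT and IRF factors, was present in 13 of 23 interferon-response genes with a promoter entry (56.5%), 4 of 16 MHC class I genes and 8.18% of all 27025 genes. The cyclic AMP response element TGACGTCA was present in 4 of 22 immediate early genes (18.2%) and 1.77% of all genes. The AP-1 site TGANTCA was present in 3 of 15 genes of the vimentin, lamin, annexin and S100 list and 7.82% of all genes. In each list the motif-bearing members with the largest folds among the genes compared are printed, 3 for interferon response and 1 for each other list.
Oas1a (chr5:120907526-120907645, minus strand): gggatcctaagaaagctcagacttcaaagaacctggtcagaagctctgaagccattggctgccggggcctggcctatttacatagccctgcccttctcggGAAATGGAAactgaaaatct
Stat2 (chr10:128270248-128270367, plus strand): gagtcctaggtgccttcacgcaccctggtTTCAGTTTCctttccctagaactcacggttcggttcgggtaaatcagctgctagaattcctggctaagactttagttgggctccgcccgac
Igtp (chr11:58199436-58199555, plus strand): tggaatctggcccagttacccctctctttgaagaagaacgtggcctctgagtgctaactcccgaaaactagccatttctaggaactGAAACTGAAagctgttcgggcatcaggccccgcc
H2-T22 (chr17:36042869-36042988, minus strand): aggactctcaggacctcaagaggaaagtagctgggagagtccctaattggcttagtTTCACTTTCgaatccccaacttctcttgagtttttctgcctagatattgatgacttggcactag
Maff (chr15:79347400-79347519, plus strand): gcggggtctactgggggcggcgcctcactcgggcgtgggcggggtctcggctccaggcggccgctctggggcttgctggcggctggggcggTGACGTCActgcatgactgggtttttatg
Anxa2 (chr9:69453531-69453650, plus strand): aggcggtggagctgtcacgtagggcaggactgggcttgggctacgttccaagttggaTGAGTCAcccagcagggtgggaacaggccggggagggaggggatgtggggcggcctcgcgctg
Oas1a, a sensor of double-stranded RNA, was at 8.11 CPM at E19 and 15.5 in P2 bone marrow. Stat2, which carries the type I interferon signal, was at 15.2 and 27.3 CPM, and Igtp, an immunity-related GTPase, at 9.91 and 16.8 CPM. Maff, a small Maf transcription factor, was at 20.6 and 7.28 CPM, and the annexin gene Anxa2 at 22.6 and 72.8 CPM. Among the compared interferon genes, the 12 with the response element had a median log2 fold of -0.44 and those without it -0.59. A match describes the letters of the window and not binding.

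**Figure D3:**
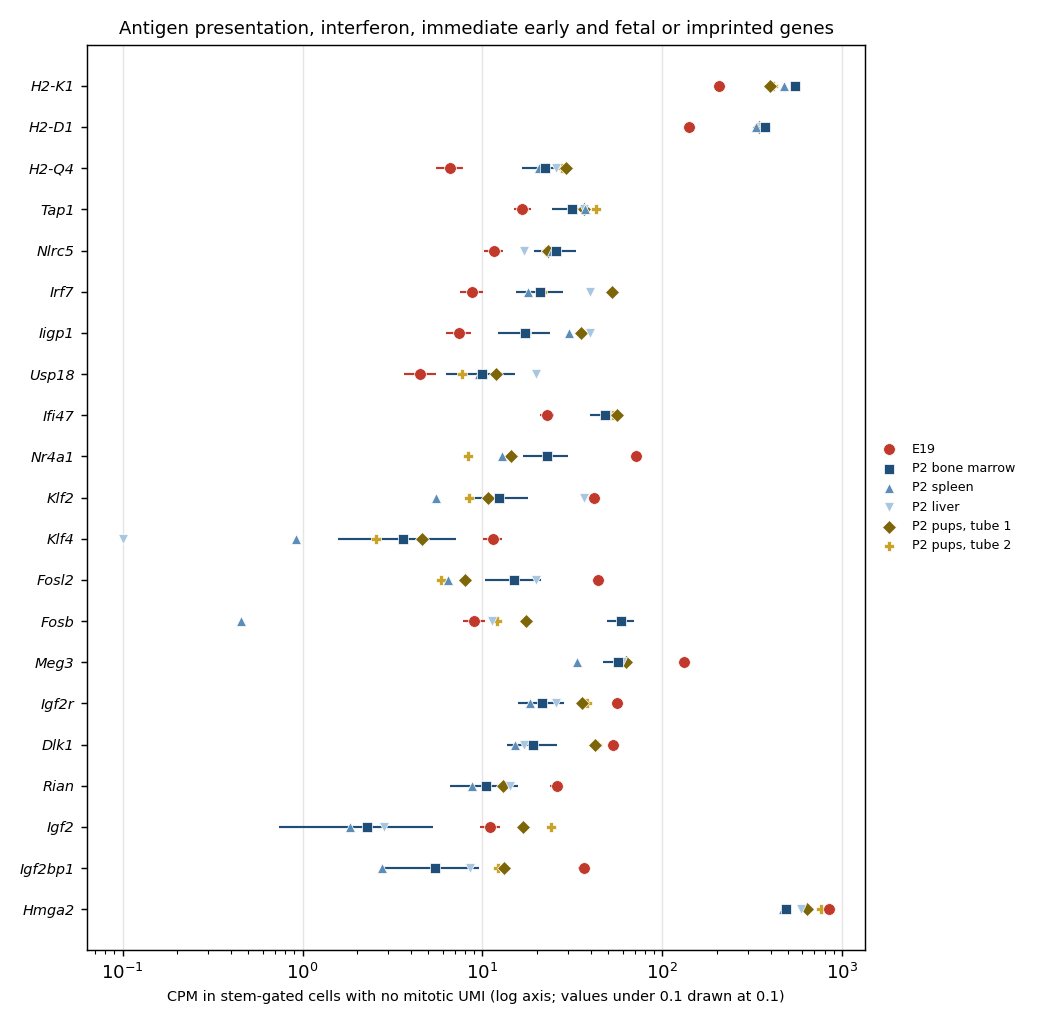
CPM (log axis) of members of the MHC class I, interferon-response, immediate early, imprinted and fetal lists in non-mitotic stem-gated cells of the 6 libraries, with exact 95% Poisson intervals for E19 (red) and P2 bone marrow (dark blue). H2-K1, H2-D1, Tap1 and Irf7 are lowest at E19, Meg3, Igf2bp1 and Nr4a1 are highest at E19, Igf2 in both tubes is above E19, and Fosb is highest in P2 bone marrow.

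Clustered histone genes, made for new DNA in S phase, were lower at E19. Of 14 compared, 11 were lower, against 5498 of all 9562, and 8 of them at least 2-fold, against 2.20% of all genes. The median log2 fold was -1.15. The linker histone gene Hist1h1b was at 13.3 CPM at E19 and between 20.04 and 56.4 CPM in the P2 libraries, and Hist1h1e at 46.7 against 146 CPM. Hist1h2ap was at 20.9 CPM at E19, 129 in P2 bone marrow and 4.72 CPM in tube 2, below E19. These genes are near-identical copies, their transcripts mostly lack poly(A) tails, and the kit captures tails, so their levels are uncertain. Replication genes of the S phase list were lower at E19 for 26 of 27 genes, against 5498 of all 9562, with a median log2 fold of -0.54. Prim1, a primase subunit, was at 37.9 against 82.3 CPM. When 4 S phase genes were also required to be at 0, leaving 2243 E19 and 269 P2 bone marrow cells, the S phase median was -0.13 and the histone median -1.31. The absence of 5 mitotic transcripts thus left different S phase levels in the 2 libraries. The second S phase median comes from cells chosen by S phase genes, so its change cannot be read as a result. The histone median did not shrink in those cells. Cenpa, a centromeric histone, was at 97.3 CPM at E19 and 33.7 in P2 bone marrow in non-mitotic cells, but slightly lower at E19 over all gated cells (log2 fold -0.14).

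Stem cell identity genes differed by small folds. Of 27 compared, 21 were higher at E19, against 4064 of all 9562, and none passed 2-fold in that direction. The median log2 fold was 0.25. The list includes Mecom, which the gate requires, so its count and median are not independent of the choice of cells. The median was 0.52 over all gated cells and 0.57 in cells with a mitotic UMI. The transcription factor genes Meis1, Mllt3, Erg, Hoxa9 and Lmo2 were within 1.11-fold of P2 bone marrow. Runx1 was at 1061 against 672 CPM, 1.58-fold (1.498 to 1.666), but P2 liver had 1040 CPM and the tubes 874 and 911 CPM. Procr, the gene of the Epcr sorting marker, was at 59.8 against 52.8 CPM and Kit at 261 against 204 CPM. Ly6a, the gene of the Sca-1 sorting marker (chromosome 15, 74994877 to 74998031, minus strand), was the member that passed 2-fold, at 31.1 CPM at E19, 86.9 in P2 bone marrow, 72.8 in P2 spleen, 90.7 in P2 liver, and 110 and 59.6 CPM in the tubes. Against tubes 1 and 2 the list's median was -0.25 and -0.31, close to that of all genes. Mecom and Hlf, which chose the cells, were at 1873 and 883 CPM at E19 and 1329 and 712 in P2 bone marrow.

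**Figure D4:**
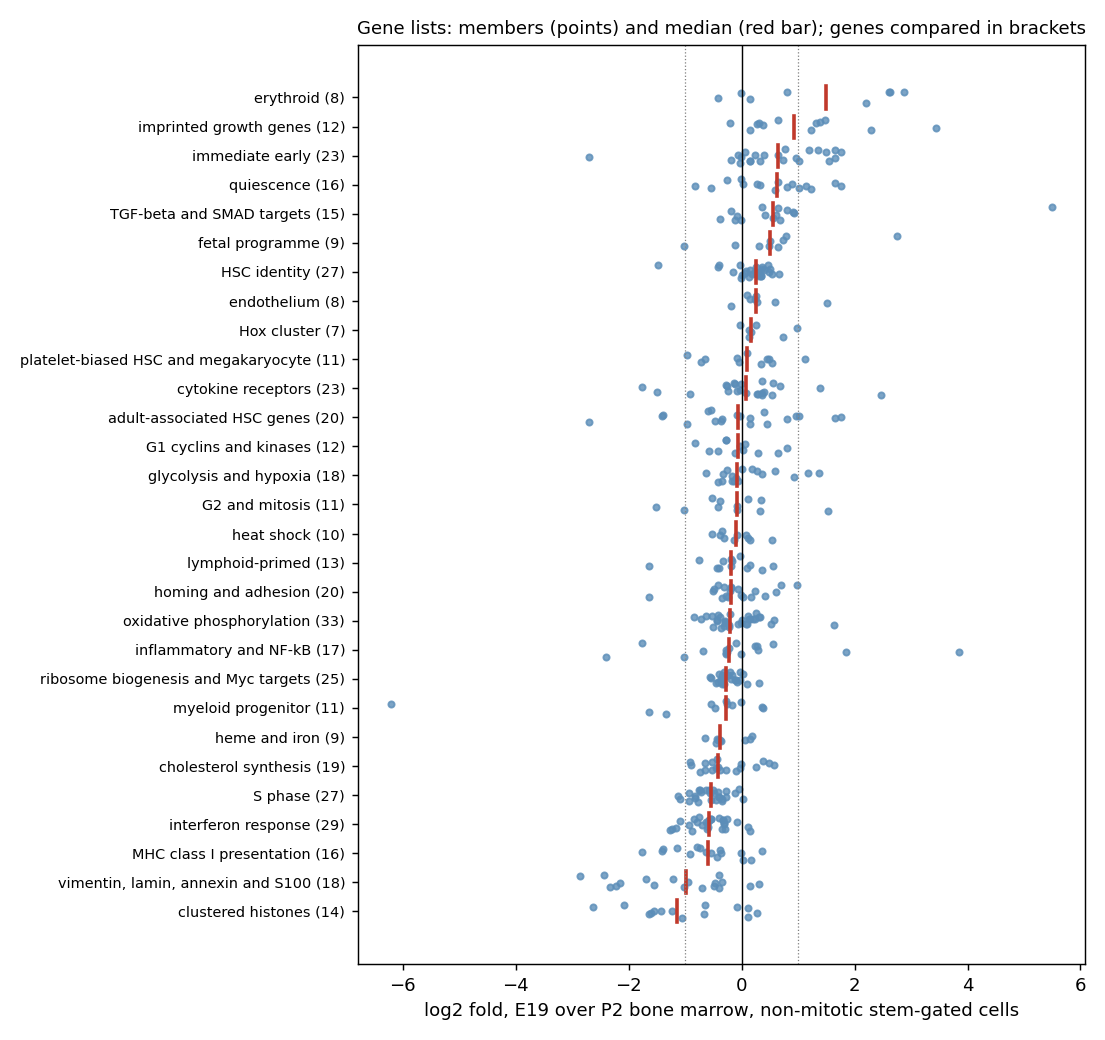
log2 fold of E19 over P2 bone marrow for the genes compared in each list with at least 7 of them, in non-mitotic stem-gated cells; points are genes, the red bar is the median and dotted lines mark 2-fold. The medians run from -1.15 for clustered histones to 1.502 for the erythroid list, most of whose high members are globins.

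Ctsg and some other myeloid transcripts were lower at E19, but the neutrophil granule list was not. None of the 12 genes of that list reached 10 CPM on either side. They summed to 9.13 CPM at E19 and 9.10 in P2 bone marrow. Ctsg, a neutrophil serine protease (chromosome 14, 56099881 to 56102574, minus strand), was at 0.417 CPM at E19 and 30.9 CPM in P2 bone marrow, 74.2-fold (36.9 to 169). It was at 15.6 and 11.3 CPM in P2 spleen and P2 liver, and at 0 and 0.983 CPM in tubes 1 and 2. Over all kept cells Ctsg was at 31.6 CPM at E19, 1337 in P2 bone marrow, 508 in P2 spleen, 1431 in P2 liver, 6.50 in tube 1 and 99.5 in tube 2, so it was high in gated cells of the libraries whose other cells held most of it. B-lineage cells of P2 bone marrow held a Ctsg UMI as often as stem-gated cells did, 10.9% against 10.8% after thinning, so the share in stem-gated cells was not above that of B-lineage cells. Il31ra was at 3.01 CPM at E19, 22.7 in P2 bone marrow, 15.1 in P2 spleen and 14.2 in P2 liver. Unlike Ctsg, it was highest in tubes 1 and 2, at 38.2 and 33.6 CPM. Il31ra UMIs were in 7.69% of B-lineage and 8.54% of stem-gated cells of P2 bone marrow. Of 8 neutrophil markers, Elane was at 0 in both libraries because the gate requires it, and Ngp was at 0 in gated P2 bone marrow cells. The 8 markers summed to 231 CPM at E19 and 327 in P2 bone marrow. That sum includes Elane and Mpo, which the gate sets or limits. Plac8, a gene of multipotent and myeloid progenitors, was at 96.8 against 245 CPM, yet at 105 and 101 CPM in tubes 1 and 2. Tgfbi, a secreted matrix protein, was at 8.80 against 51.8 CPM and in 0 of the B-lineage cells of either library, which allows a share of up to 3.45% at E19 and 0.481% in P2 bone marrow.

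The 4 globin genes compared were higher at E19 in non-mitotic cells, but not all were in cycling cells or against P2 spleen. The beta chain gene Hbb-bt was at 985 CPM at E19, 566 in P2 bone marrow, 566 in P2 spleen, 473 in P2 liver, and 1.36 and 7.27 CPM in the tubes. Hba-a1 and Hba-a2, near-identical alpha chain genes, were at 72.6 and 56.4 CPM at E19 and 11.8 and 7.73 CPM in P2 bone marrow, with 76.0 and 46.7 CPM in P2 spleen. Over all kept cells the sum of erythroid markers was 1847 CPM at E19 and 860 CPM in P2 bone marrow. Hba-a1 UMIs were in 10.3% of E19 stem-gated cells and 11.5% of its B-lineage cells, whereas Hbb-bt was in 70.1% and 13.8%. What part free RNA had in the Ctsg and alpha globin values was not tested. In gated cells with a mitotic UMI, Hba-a1 was 1.88-fold higher at E19. Hbb-bs, the other adult beta chain gene, was at 140 CPM at E19, 30.5 in P2 bone marrow and 196 in P2 spleen in non-mitotic cells, and at 349 CPM at E19 against 495 in P2 bone marrow in cells with a mitotic UMI, the opposite direction. Of the 4 genes of the erythroid list past 2-fold, 3 were globins and the other was the metallothionein gene Mt2, at 11.1 against 1.82 CPM, which is not specific to red cells.

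A few chemokine, cytokine receptor and lysosomal genes are given singly. Ccl3 and Ccl4, chemokines made by many blood cells, were at 13.2 and 108 CPM at E19 and 0.910 and 30.01 CPM in P2 bone marrow, with at most 2.84 and 48.2 CPM in any P2 library; Ccl3 rested on 2 UMIs in P2 bone marrow. Il1r1, the receptor of interleukin 1, was at 10.2 CPM at E19 and between 27.01 and 51.02 CPM in the P2 libraries. Socs3, an inhibitor of cytokine signalling, was at 3.61 against 19.1 CPM, with 3.93 CPM in tube 2. Csf2ra, a chain of the GM-CSF receptor, was at 20.2 against 3.64 CPM, yet at 30.6 and 35.4 CPM in the tubes. Ctss, a lysosomal protease, and Ms4a6c, a membrane protein gene of myeloid cells, were at 4.91 and 6.49 CPM at E19 and at least 25.01 and 29.6 CPM in each P2 library.

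Metabolic lists lay close to the whole. Cholesterol synthesis genes had a median log2 fold of -0.41 with 0 of 19 past 2-fold, and medians from -0.32 to 0.10 against the other P2 libraries. Ribosome biogenesis genes had a median of -0.27 with 22 of 25 lower at E19, against 5498 of all 9562, and 0 past 2-fold. Oxidative phosphorylation genes had a median of -0.21, and the 1 member past 2-fold was Cox4i2, at 21.2 against 6.82 CPM. The sex makeup of the libraries also differed: Xist was at 274 CPM at E19 and 550 in P2 bone marrow, and the Y-linked Uty at 126 and 51.4 CPM. What part this had in the differences above was not tested.

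**Figure D5:**
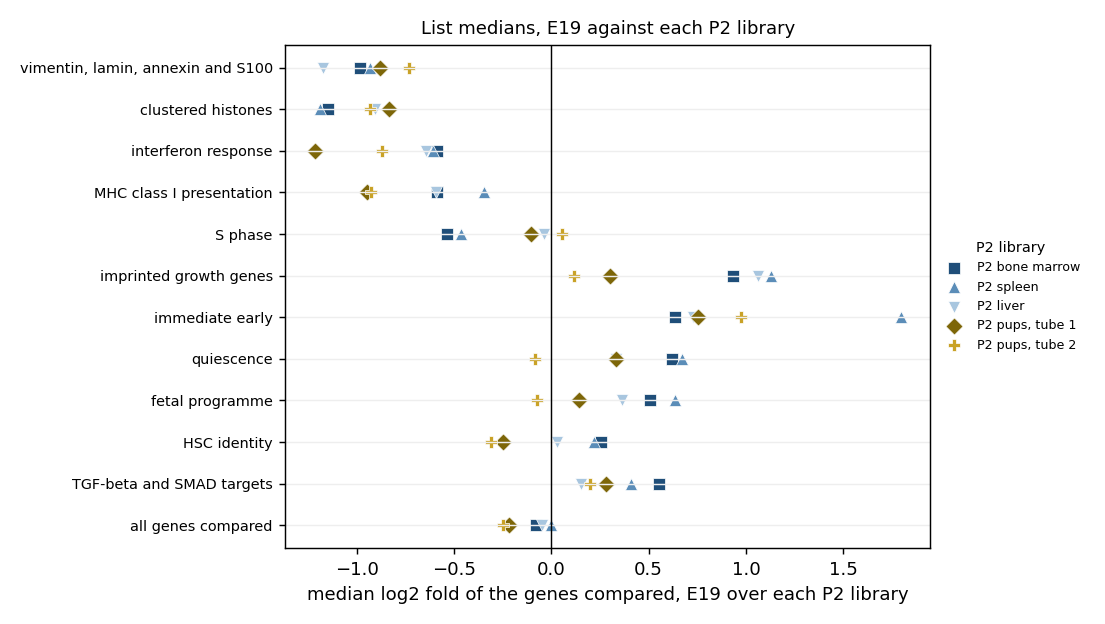
Median log2 fold of 11 gene lists and of all genes compared, E19 over each of the 5 P2 libraries, in non-mitotic stem-gated cells. Medians of the vimentin, histone, interferon and MHC class I lists lie below 0 against each P2 library and those of the imprinted and immediate early lists above 0, while quiescence, fetal and HSC identity medians lie below 0 against tube 2.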

How the data were processed

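UMI counts per gene and cell, as deposited by the authors for 6 single-cell 3' RNA libraries, were used; 2 hashtag samples were not used here. Cell Ranger 7.0.0 (P2 pool), 7.1.0 (E19) and 8.0.1 (tubes) made the matrices, per the file headers; the submitters' processing notes name 7.0.0 and mm10. The authors' counts for 32285 genes were filtered and gated as the report states. CPM are sums over cells per 1000000 of their UMIs, with exact 95% Poisson intervals; folds use exact conditional intervals, and shares exact Clopper-Pearson intervals (scipy 1.17.1). Where a share was 0, the limit given as allowed is 3 counts over the number of cells, not the Clopper-Pearson bound. With 1 library a side no test was made. Doublets were not removed, except in an alternative (Scrublet in scanpy 1.11.5). Thinning drew 4000 UMIs a cell (seed 1) and left out 555 of 3891 non-mitotic E19 cells and 164 of 480 in P2 bone marrow; their medians before were 5510 and 4915 UMIs, and those of B-lineage cells 9438 and 7310. Named genes were the 12 largest folds each way at 20 CPM or more, up to 4 per gene list with the largest folds, the 10 each way farthest outside the P2 range, and stem, sort and gate genes; others were named after their values were seen, and 2 genes the rule names are not reported here. Members and lists were chosen with earlier results of these data known. Coordinates are GENCODE vM21 (mm10). The code was tested on simulated data.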

Additional observations from a re-analysis of the deposited data

How the results depend on the processing

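With 1 library a side, the values hold for these libraries and not for the ages. No paired analysis was possible because each group has 1 library. Counts of genes at least 2-fold higher at E19 and in P2 bone marrow (266 and 210) were 422 and 345 with a minimum of 5 CPM, 75 and 45 with 50 CPM, 81 and 57 at 3-fold, and 799 and 1044 at 1.5-fold. They were 518 and 649 with P2 liver as the P2 side, which holds 54 cells. The P2 count was 469 with tube 1 and 720 with tube 2. Genes outside the P2 range (136 above and 185 below) were 48 and 50 at 2-fold, a setting chosen after seeing the data. The stem-gated share at E19 was 71.09% with every cell thinned first, 76.54% with doublet scores removed, 68.63% with Mecom and Hlf at 2 or more, and 80.75% with no condition on Mpo; in P2 bone marrow it was 17.76% thinned, 15.59% at 2 or more, and 25.22% with no condition on Mpo. The non-mitotic share at E19 was 52.83% thinned and 48.06% with doublet scores removed.

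These log2 folds of E19 over the P2 side changed direction, and the cause was not tested. Over all gated cells Cenpa was at -0.14 and Hbb-bs at -0.51, and in cells with a mitotic UMI at -0.19 and -0.50. With P2 spleen, Hba-a1 was at -0.065, Hbb-bs at -0.48, Fosb at 4.30 (from 1 P2 spleen UMI) and the erythroid median at -0.039. With P2 liver, Id3 was at -0.61 and Cenpe at 0.56. With tube 1, Igf2 was at -0.60, Cox4i2 at -0.26, Vegfa at -0.015, Csf2ra at -0.60 and Xist at 2.26. With tube 2, Igf2 was at -1.12, Csf2ra at -0.81, Trp53inp1 at -0.33, Sox18 at -0.35, Ccnb2 at 1.90, Cenpe at 0.45, Hist1h2ap at 2.15 and Hist1h2ae at 0.46. Under other scalings, thinning, doublet removal, other gates and S phase genes at 0, none of the named genes at least 2-fold apart changed direction.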

Other observations

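Fos differed between P2 tissues of the same mice: it was at 95.5 CPM in P2 bone marrow, 5.95 in P2 spleen and 53.9 in P2 liver, with 106 CPM at E19. Fosb was at 58.7, 0.458 and 11.3 CPM in those P2 libraries, the P2 spleen value from 1 UMI. Tissue and library cannot be told apart here.

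Tppp3 and Emp1, members of the vimentin, lamin, annexin and S100 list below the 10 CPM minimum, were at 0.788 and 1.39 CPM at E19 and at 6.82 and 9.10 CPM in P2 bone marrow. H2-Q7 was at 0.834 and 8.64 CPM.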
